A study of Mus musculus with 24 samples.

Results

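In mouse embryonic stem cells (mESCs), 10 genes of the Notch pathway were followed through 2 RNA sequencing experiments. They are the 4 receptors Notch1, Notch2, Notch3 and Notch4, the 4 ligands Dll1, Dll3, Jag1 and Jag2, and the target genes Hes1 and Hey1. The members were chosen by name. Each of the 10 had 1 row in both count tables, which held 35022 genes for the experiment in which PD03 was removed and 48709 for the one in which CHIRON was removed. All libraries came from E14 mESCs, labelled 129m wt, on StemBond hydrogels coated with fibronectin, which were either soft or stiff. The cells were first kept for 12 h in 2i + LIF, a medium with 1 µM PD03 (an inhibitor of MEK, which blocks ERK signalling), 3 µM CHIRON (an inhibitor of GSK3, which stabilises β-catenin) and the cytokine LIF. RNA was taken in this medium (0 h), and at 2 h and 12 h after PD03 removal, which left the cells in CHIRON + LIF, or after CHIRON removal, which left them in PD03 + LIF. The 2 substrates and 3 times made 6 groups per experiment, with 2 replicate libraries in each, and every group was from the same cell line. Where the replicates came from is not given in the labels, so p-values measure only the spread between these libraries, which may be technical.

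Notch receptors are single-pass membrane proteins that are switched on by ligands of the Delta and Jagged families on a neighbouring cell. Ligand binding leads to cleavage of the receptor by an ADAM protease and then by γ-secretase, and the freed intracellular domain enters the nucleus, where it joins the DNA-binding protein RBPJ and a Mastermind coactivator on target genes such as Hes1 and Hey1. Hes1 also responds to signals other than Notch. In mESCs the pathway is best known for its part in the choice of a neural fate when self-renewal ends.

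Total counts per library lay between 16222196 and 26442153 for PD03 removal and between 19393787 and 31111260 for CHIRON removal. The first replicate of stiff substrates at 2 h of CHIRON removal held 171333 counts and was left out, so that this group has 1 library. Levels are given as CPM, which are counts scaled to the size of the library, here after TMM normalisation. All 8 markers of naïve mESCs, among them Pou5f1, Nanog and Esrrb, were above 100 CPM in every library, and the summed level of 6 fibroblast markers reached 6.63 CPM at most. These are bulk samples, in which fewer cells of a type and less RNA per cell cannot be told apart. The summed levels of some marker lists shifted with time, and they are given beside the results they move with.

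The members lie on 6 chromosomes of GRCm38. Notch1 (chr2:26457903-26516663, minus strand) and Notch2 (chr3:98013527-98150361, plus strand) encode the broadly expressed receptors. Notch3 (chr17:32120820-32166852, minus strand) is best known from smooth muscle, and Notch4 (chr17:34564268-34588503, plus strand) from endothelium. The promoters of Notch1, Notch3 and Notch4 are shown because these receptors rose at 12 h of one or both removals. Each window runs from 250 to 31 bases before the transcript start of RefSeq on GRCm38.p6 and holds 220 bases, with CTTTG (the core of TCF/LEF sites) and GGGCGG (the GC box) in capitals on either strand.
Notch1, chr2:26503853-26504072, minus strand: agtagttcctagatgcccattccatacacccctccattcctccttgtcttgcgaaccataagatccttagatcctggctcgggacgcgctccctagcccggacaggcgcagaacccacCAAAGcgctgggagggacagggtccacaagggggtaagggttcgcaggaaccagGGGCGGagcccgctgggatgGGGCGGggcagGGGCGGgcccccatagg
Notch3, chr17:32166921-32167140, minus strand: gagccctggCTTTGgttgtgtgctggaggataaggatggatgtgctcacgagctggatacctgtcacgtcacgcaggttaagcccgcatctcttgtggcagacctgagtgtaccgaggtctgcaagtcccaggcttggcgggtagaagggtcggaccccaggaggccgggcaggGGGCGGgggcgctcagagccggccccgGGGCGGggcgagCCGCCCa
Notch4, chr17:34564045-34564264, plus strand: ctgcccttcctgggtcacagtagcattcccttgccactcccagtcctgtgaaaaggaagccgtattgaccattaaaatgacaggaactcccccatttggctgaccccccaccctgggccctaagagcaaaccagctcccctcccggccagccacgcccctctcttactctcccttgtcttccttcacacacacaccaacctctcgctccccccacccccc
The Notch1 window lies inside the span that the annotation gives the gene, since other transcripts start further upstream. CTTTG stood 1 time in each of the windows of Notch1 and Notch3, and 44.9% of the 32851 promoter windows of the same length held it. GGGCGG stood 3 times in each of these 2 windows and was in 28.5% of all windows, whereas the Notch4 window held neither. None of the 3 windows held TGGGAA, the core of RBPJ sites (19.4% of all windows), or CCGGAA, the core of ETS sites (9.47%). The 4 motifs were searched on both strands and do not overlap each other in these windows. The window of Notch2, the receptor without a called rise, is not shown and held GGGCGG 4 times and CTTTG 0 times. A match of letters is a description of the sequence and does not show that a factor binds there.

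Before removal of an inhibitor, Hes1 had the highest level per length of the members in both experiments. On the scale of CPM per kb of exon, its mean over the 4 libraries at 0 h was 17.3 ± 1.2 (SD) before PD03 removal and 26.5 ± 1.9 (SD) before CHIRON removal. Before PD03 removal, Jag1 (5.25 ± 0.42 CPM per kb) and Notch1 (5.18 ± 0.38) came next, with ranges that overlapped. They were followed by Notch2 (4.09 ± 0.29), Notch4 (2.51 ± 0.18), Notch3 (1.70 ± 0.10) and Jag2 (0.733 ± 0.048), whose ranges did not overlap with the next gene. Hey1 (0.396 ± 0.119) and Dll3 (0.365 ± 0.103) overlapped, and Dll1 was the lowest at 0.0559 ± 0.0394 CPM per kb. Before CHIRON removal, Notch1 (7.24 ± 0.75 CPM per kb) and Notch2 (6.79 ± 1.04) overlapped, as did Notch3 (2.52 ± 0.23), Jag1 (2.14 ± 0.27) and Notch4 (2.07 ± 0.13) with their neighbours in the order. Dll3 (1.56 ± 0.15), Jag2 (0.828 ± 0.136), Hey1 (0.312 ± 0.165) and Dll1 (0.0541 ± 0.0539) followed without overlap. Values per kb, and so the order of the genes, rest on the merged length of all annotated exons. This length can exceed that of the transcripts present. Levels were not tested between experiments, which differ in their gene tables and share of protein-coding counts. Within each, the ranges of the receptors and Hes1 lay above those of the Delta-like ligands, by the least for Notch4 (lowest library 1.94 CPM per kb) over Dll3 (highest library 1.70 CPM per kb) before CHIRON removal.

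**Figure D1:**
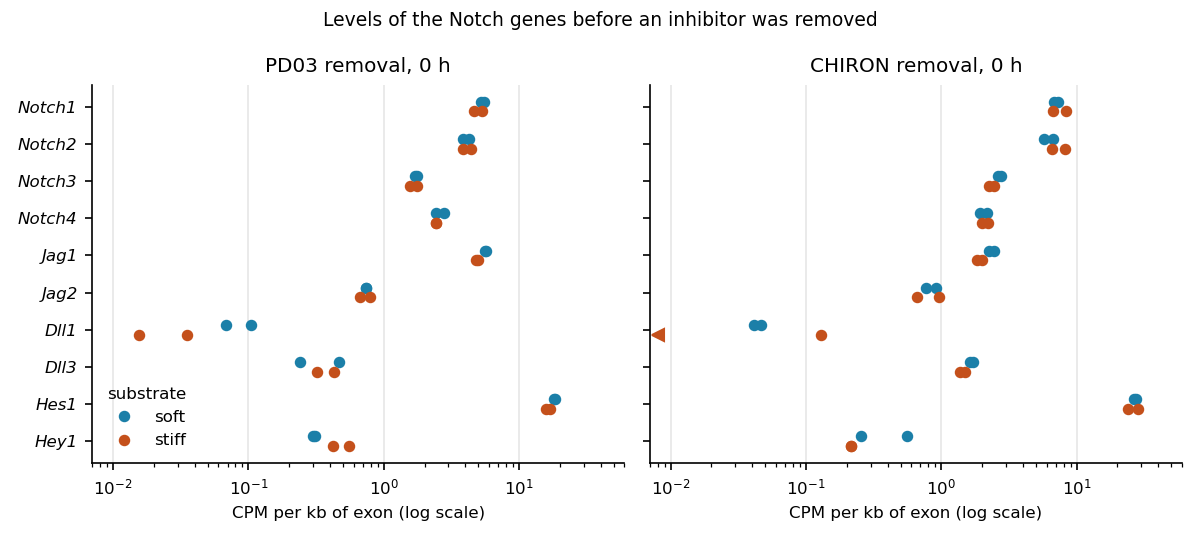
Levels of the 10 genes at 0 h in CPM per kb of exon on a log axis, with 1 point per library, soft and stiff substrates in separate colours, and a triangle at the left edge for a library with 0 counts. Hes1 lies to the right of all other genes in both experiments, and Dll1 to the left.

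Upon PD03 removal, Notch3 rose on both substrates at 12 h, with similar estimates of the change. On soft substrates its level was 13.7 and 14.3 CPM at 0 h, 13.0 and 13.8 CPM at 2 h, and 20.01 and 22.6 CPM at 12 h. On stiff substrates it was 12.6 and 14.3 CPM at 0 h, 12.7 and 11.1 CPM at 2 h, and 21.5 and 19.6 CPM at 12 h. On both substrates, all libraries at 12 h were above all those at 0 h and 2 h. The log2 fold change at 12 h against 0 h was 0.61 ± 0.11 (SE) on soft substrates (adjusted p = 0.000142) and 0.61 ± 0.12 on stiff substrates (adjusted p = 0.000114). At 2 h it was -0.06 ± 0.12 on soft and -0.18 ± 0.12 on stiff substrates, and neither passed the test. The difference between the responses at 12 h, soft minus stiff, was 0.000265 ± 0.167 and did not pass. With an error of this size, an equal rise was not shown.

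Notch4 rose on both substrates at 12 h of PD03 removal, with the larger value on stiff substrates. There it was 19.6 and 19.4 CPM at 0 h, 22.1 and 20.4 CPM at 2 h, and 30.5 and 29.6 CPM at 12 h. On soft substrates it was 22.4 and 19.5 CPM at 0 h, 21.1 and 21.1 CPM at 2 h, and 25.6 and 24.6 CPM at 12 h. The 12 h libraries were above the 0 h libraries on both substrates, but on soft substrates the gap was small. The log2 fold change was 0.62 ± 0.09 on stiff substrates (adjusted p = 5.7e-06) and 0.26 ± 0.10 on soft substrates (adjusted p = 0.0428). The soft call was lost in 6 of 10 alternatives, with adjusted p up to 0.326 without replicate 2 of soft substrates at 0 h. The difference between these responses, soft minus stiff, was -0.37 ± 0.13 and did not pass (adjusted p = 0.622), so a stiffness dependence of Notch4 was not shown.

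Notch1 and Notch2 moved in opposite directions at 12 h of PD03 removal, and the changes that passed the test were on stiff substrates. Notch1 on stiff substrates was 66.0 and 76.0 CPM at 0 h and 83.6 and 86.6 CPM at 12 h (log2 fold change 0.26 ± 0.08, adjusted p = 0.0112). Notch2 there was 41.3 and 47.7 CPM at 0 h and 35.8 and 39.4 CPM at 12 h (log2 fold change -0.25 ± 0.09, adjusted p = 0.0305). In both genes the 2 groups did not overlap, yet the gap between them was smaller than the range within the 0 h group. Without replicate 1 of stiff substrates at 0 h the adjusted p of Notch1 was 0.174, and without replicate 2 of that group the adjusted p of Notch2 was 0.379. On soft substrates Notch1 was 78.5 and 74.3 CPM at 0 h and 74.1 and 90.0 CPM at 12 h, with overlap (log2 fold change 0.10 ± 0.08, adjusted p = 0.345). Notch2 on soft substrates was 45.7 and 41.7 CPM at 0 h and 36.8 and 40.6 CPM at 12 h (log2 fold change -0.18 ± 0.09, adjusted p = 0.142). The difference in response between substrates did not pass for either gene, at -0.15 ± 0.11 (adjusted p = 0.862) for Notch1 and 0.07 ± 0.13 (adjusted p = 0.954) for Notch2.

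Counting all members at 12 h of PD03 removal, 3 of the 9 tested on soft substrates rose, where 29.4% of the 13404 genes tested were called in either direction and 14.1% rose, and 0 fell. On stiff substrates 3 rose and 1 fell, where 38.4% of genes were called, 18.5% as higher and 19.9% as lower. The members' shares, 33.3% and 44.4% of those tested, were near the background of calls in either direction. The median log2 fold change of the members was 0.26 on soft and 0.17 on stiff substrates, beside medians of -0.00137 and -0.00155 over all genes. Dll1 did not pass the filter on low counts in this experiment. At 12 h the summed level of the 8 naïve markers was 5967 to 6396 CPM, below the 7296 to 7484 CPM at 0 h. The summed level of 6 markers of primitive streak and mesoderm was 49.2 to 57.5 CPM, above the 21.3 to 24.6 CPM at 0 h, with T the most abundant, with the mean of 4 of the 6 higher than at 0 h and none of them at 0 in every library. The summed level of 6 primitive endoderm markers was 4.43 to 5.23 CPM, above the 3.51 to 3.88 CPM at 0 h, with the mean of 5 of the 6 higher. That of 6 neural progenitor markers was 32.5 to 36.9 CPM, below the 37.5 to 43.7 CPM at 0 h, although the mean of 5 of the 6 was higher. The part of these cell states in the changes of the receptors was not tested.

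**Figure D2:**
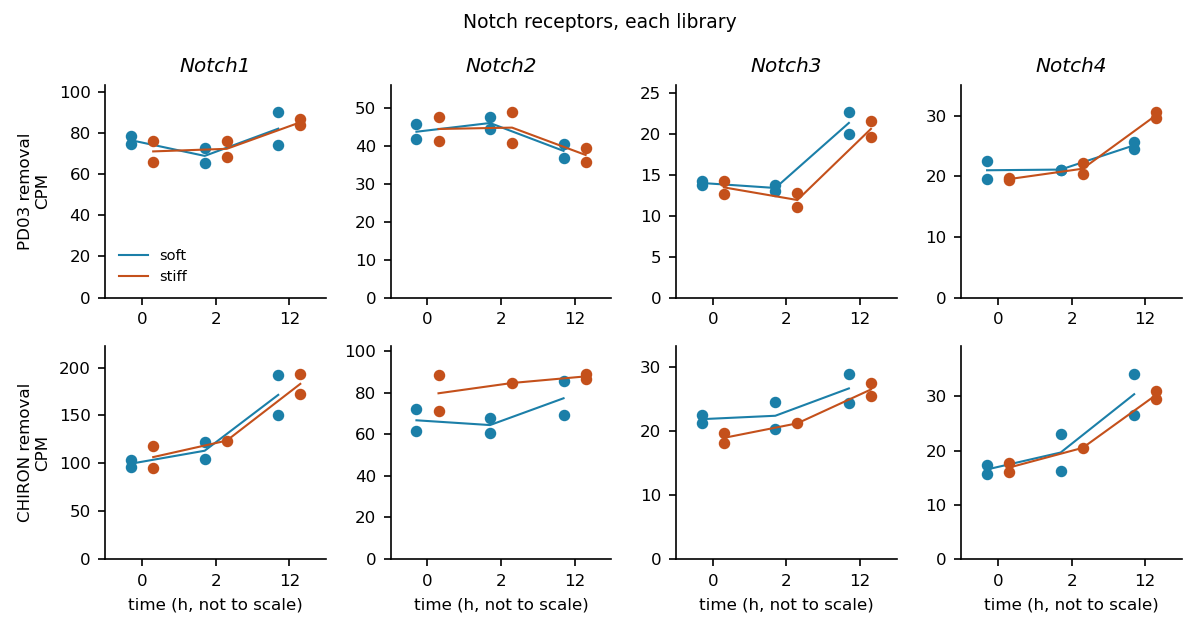
Level of each Notch receptor in CPM (vertical axes from 0) at 0 h, 2 h and 12 h (horizontal axes, not to scale) for PD03 removal (top) and CHIRON removal (bottom), with 1 point per library and lines through the means of soft and stiff substrates. Notch3 and Notch4 rise at 12 h in the top row, and Notch1 and Notch4 in the bottom row.

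Upon CHIRON removal, Notch1 and Notch4 were the receptors that rose on both substrates, and Notch3 passed on stiff substrates. Notch1 on soft substrates was 96.4 and 103 CPM at 0 h, 122 and 104 CPM at 2 h, and 192 and 151 CPM at 12 h. On stiff substrates it was 94.9 and 118 CPM at 0 h, 124 CPM in the 1 library at 2 h, and 194 and 172 CPM at 12 h. All libraries at 12 h were above those at the earlier times. The log2 fold change at 12 h was 0.79 ± 0.12 on soft substrates (1.72-fold, adjusted p = 0.000109) and 0.78 ± 0.12 on stiff substrates (1.72-fold, adjusted p = 0.000116). At 2 h Notch1 did not pass, with 0.18 ± 0.12 on soft substrates and 0.22 ± 0.14 on stiff substrates.

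Notch4 on soft substrates was 17.4 and 15.7 CPM at 0 h, 16.3 and 23.1 CPM at 2 h, and 26.6 and 34.2 CPM at 12 h of CHIRON removal. On stiff substrates it was 17.7 and 16.0 CPM at 0 h, 20.5 CPM at 2 h, and 29.6 and 31.02 CPM at 12 h. The 12 h libraries did not overlap with those of 0 h or 2 h, and the replicates of soft substrates were further apart than those of stiff substrates. The log2 fold change was 0.87 ± 0.15 on soft (adjusted p = 0.000437) and 0.84 ± 0.15 on stiff substrates (adjusted p = 0.000643). Notch4 kept its call in all 12 alternatives on each substrate.

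Notch3 passed on stiff substrates at 12 h of CHIRON removal, where it was 18.1 and 19.7 CPM at 0 h and 25.4 and 27.4 CPM at 12 h (log2 fold change 0.48 ± 0.12, adjusted p = 0.0107). On soft substrates it was 21.2 and 22.4 CPM at 0 h and 28.9 and 24.3 CPM at 12 h (0.29 ± 0.12, adjusted p = 0.106). The groups did not overlap on either substrate, and the difference between the responses was -0.19 ± 0.17 (adjusted p = 1.00). The call on stiff substrates was lost without replicate 1 at 0 h (adjusted p = 0.0756) and without replicate 2 at 12 h (adjusted p = 0.102). Notch2 did not pass on either substrate, with 0.22 ± 0.12 on soft substrates (adjusted p = 0.220) and 0.14 ± 0.11 on stiff substrates (adjusted p = 0.461).

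All 10 members were tested in this experiment, and at 12 h of CHIRON removal 2 of them rose on soft substrates, where 17.8% of 14615 genes were called and 9.18% rose. On stiff substrates 3 rose, where 16.8% of genes were called and 8.46% rose, and none fell on either, so the members' shares were 20% and 30%. The medians of the members were 0.23 and 0.25 on the log2 scale, beside -0.01 over all genes on both substrates. With the small library of stiff substrates at 2 h added to the fit, Notch1 had log2 fold changes of 0.79 on both substrates but adjusted p of 0.688 and 0.696, and Notch4 alone was called. At 12 h the summed level of 6 neural progenitor markers was 77.8 to 85.7 CPM, above the 37.6 to 42.3 CPM at 0 h, with Nes the most abundant, with the mean of 5 of the 6 higher than at 0 h and none of them at 0 in every library. The summed level of the primitive streak and mesoderm markers was 14.3 to 17.2 CPM, below 23.5 to 25.9 CPM at 0 h, with the mean of 3 of the 6 lower and that of 2 higher. Their part in the changes of the receptors was not tested.

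Whether the 2 removals shifted the receptors differently was tested as the difference between the mean responses over both substrates (PD03 minus CHIRON removal, 23 libraries in 1 model). At 12 h, 3 of the 9 members tested differed, and all 3 were lower in the response to PD03 removal, where 36.1% of 14758 genes differed in either direction and 17.5% in this one. Notch1 differed by -0.60 ± 0.11 (adjusted p = 0.000109), Notch4 by -0.42 ± 0.13 (adjusted p = 0.0130) and Notch2 by -0.39 ± 0.11 (adjusted p = 0.00766). For Notch2 the difference joins a fall upon PD03 removal, called on stiff substrates, and a change that did not pass upon CHIRON removal. Notch3 differed by 0.22 ± 0.12, which did not pass (adjusted p = 0.163). The experiments were separate, so removal and experiment cannot be told apart in these differences.

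The sum of the 4 receptors followed the same pattern. In CPM per kb it was 13.8 ± 0.7 (SD) on soft and 13.2 ± 1.0 on stiff substrates at 0 h of PD03 removal, and 15.1 ± 1.2 and 15.7 ± 0.1 at 12 h. In CHIRON removal it went from 17.9 ± 1.0 and 19.3 ± 2.3 at 0 h to 26.3 ± 2.9 and 28.0 ± 0.9 at 12 h (n = 2 each, without a test of the sum). The makeup of the sum also differed with time. The share of Notch2 went from 29.5% ± 0.5 and 31.2% ± 0.7 to 23.8% ± 0.2 and 22.2% ± 1.3 at 12 h of PD03 removal, whereas that of Notch3 went from 12.6% ± 1.0 and 12.6% ± 0.1 to 17.4% ± 0.2 and 16.2% ± 1.2. In CHIRON removal the share of Notch1 went from 39.1% ± 0.3 and 38.7% ± 1.4 to 45.7% ± 2.8 and 45.8% ± 2.2. The share of Notch2 was lower at 12 h of CHIRON removal too, at 27.2% ± 1.1 and 29.1% ± 0.4, from 34.4% ± 2.0 and 38.2% ± 1.3 at 0 h. Notch1 had the largest mean share in every group of both experiments, although Notch2 came close to it on stiff substrates at 0 h of CHIRON removal, at 38.2% ± 1.3 beside 38.7% ± 1.4.

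Among the 4 ligands, only Jag2 passed the test, on soft substrates at 12 h of PD03 removal. Jag1 (chr2:137081456-137116644, minus strand) and Jag2 (chr12:112907819-112929776, minus strand) are activating ligands of the Jagged family. Jag2 was 5.12 and 5.14 CPM at 0 h and 6.19 and 8.53 CPM at 12 h on soft substrates, and the log2 fold change was 0.52 ± 0.19 (adjusted p = 0.0341). Both 12 h libraries were above those at 0 h, but they lay far apart, and without replicate 2 at 12 h the value was 0.27 (adjusted p = 0.438). On stiff substrates Jag2 was 4.68 and 5.50 CPM at 0 h and 7.35 and 6.84 CPM at 12 h, and the change of 0.47 ± 0.19 on the log2 scale just missed the threshold (adjusted p = 0.0500332). Upon CHIRON removal Jag2 lay between 4.62 and 7.43 CPM in all 11 libraries, and its groups at 0 h and 12 h overlapped on stiff substrates.

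Jag1 passed in none of the comparisons with 0 h. It lay between 23.7 and 37.3 CPM in the 12 libraries of PD03 removal and between 10.1 and 16.9 CPM in the 11 libraries of CHIRON removal. Its means were lowest at 2 h in both experiments and on both substrates. On soft substrates of CHIRON removal it was 14.3 and 13.1 CPM at 0 h and 10.2 and 10.8 CPM at 2 h, without overlap, but this did not pass (log2 fold change -0.38 ± 0.14, adjusted p = 0.396). At 12 h of CHIRON removal on stiff substrates its log2 fold change was 0.35 ± 0.14 (adjusted p = 0.0979).

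Of the Delta-like ligands, Dll1 was scarce in both experiments and Dll3 in PD03 removal. Dll1 (chr17:15367354-15376872, minus strand), an activating ligand, had 0 to 7 counts per library in PD03 removal and 0 to 11 in CHIRON removal, so that a change in it was not detectable at this depth. Dll3 (chr7:28293553-28302238, minus strand), a divergent ligand that acts mainly within the cell and does not activate receptors on neighbours, had 10 to 25 counts in PD03 removal and 56 to 158 in CHIRON removal. Its level was 0.652 to 1.72 CPM in the former and 3.00 to 6.08 CPM in the latter. In CHIRON removal the largest difference from 0 h was -0.33 ± 0.29 at 2 h on soft substrates, which did not pass (adjusted p = 0.789). The standard errors of Dll3 upon PD03 removal were 0.40 or more. Its log2 fold change of 0.62 ± 0.40 at 12 h on soft substrates did not pass (adjusted p = 0.264). Changes larger than the standard error could thus be missed there.

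The target gene Hes1 (chr16:30064384-30067796, plus strand) encodes a basic helix-loop-helix repressor, and it was the member that changed at 2 h. On stiff substrates it was 32.2 and 34.3 CPM at 0 h, 50.6 and 55.3 CPM at 2 h, and 33.0 and 36.7 CPM at 12 h of PD03 removal. On soft substrates it was 37.7 and 36.8 CPM at 0 h, 38.7 and 39.5 CPM at 2 h, and 40.2 and 38.8 CPM at 12 h. The 2 stiff libraries at 2 h thus stood above the other 10 libraries of the experiment, and at 12 h of PD03 removal on stiff substrates the level again overlapped with that of 0 h (log2 fold change 0.06 ± 0.08). The log2 fold change at 2 h was 0.67 ± 0.08 on stiff substrates (1.59-fold, adjusted p = 5.04e-07) and 0.07 ± 0.08 on soft substrates (adjusted p = 0.813). Hes1 was the only one of the 9 members called at 2 h on stiff substrates, where 2.73% of all genes were called and 1.84% rose. On soft substrates 0 of 9 members were called by edgeR, 0 at an unadjusted p under 0.05 and 0 by DESeq2, where 1.96% of genes were called.

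Upon CHIRON removal Hes1 did not rise at 2 h. It was 53.9 and 55.7 CPM at 0 h and 47.1 and 45.3 CPM at 2 h on soft substrates, and 57.9 and 48.6 CPM at 0 h and 46.3 CPM at 2 h on stiff substrates. The log2 fold changes were -0.25 ± 0.10 (adjusted p = 0.455) and -0.20 ± 0.12 (adjusted p = 0.762), so the lower values at 2 h did not pass the test. At 12 h Hes1 was 52.3 and 58.7 CPM on soft and 52.5 and 51.6 CPM on stiff substrates, which overlapped with 0 h. The response of Hes1 at 2 h differed between the removals by 0.59 ± 0.09 (adjusted p = 0.000114), higher upon PD03 removal. Hes1 was the only one of 9 members to differ at 2 h, where 3.5% of genes differed and 1.66% were higher. The difference at 2 h joins a rise upon PD03 removal, called on stiff substrates only, and lower values upon CHIRON removal that did not pass. At 12 h the difference was 0.08 ± 0.08 (adjusted p = 0.502). Among the 10 members, 0 were called at 2 h of CHIRON removal on either substrate by edgeR or DESeq2, where 0.226% and 0.103% of genes were called, and 2 on soft and 0 on stiff substrates had an unadjusted p under 0.05.

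Hey1 (chr3:8663359-8667256, minus strand), a related repressor, had only 8 to 42 counts per library. On stiff substrates of PD03 removal it was 1.36 and 1.82 CPM at 0 h, 0.522 and 0.864 CPM at 2 h, and 0.936 and 1.32 CPM at 12 h. The 2 h libraries, in which Hes1 had its highest values, were below those at 0 h. The log2 fold change of Hey1 at 2 h, -1.22 ± 0.41, did not pass (adjusted p = 0.122). On soft substrates Hey1 was 0.978 and 1.01 CPM at 0 h and 1.57 and 1.35 CPM at 2 h, and its log2 fold change was 0.55 ± 0.39 (adjusted p = 0.645). At 12 h of CHIRON removal on stiff substrates it was 1.44 and 1.97 CPM, above 0.705 and 0.706 CPM at 0 h (1.26 ± 0.50 on the log2 scale, adjusted p = 0.0988). Hey1 passed in none of these comparisons.

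**Figure D3:**
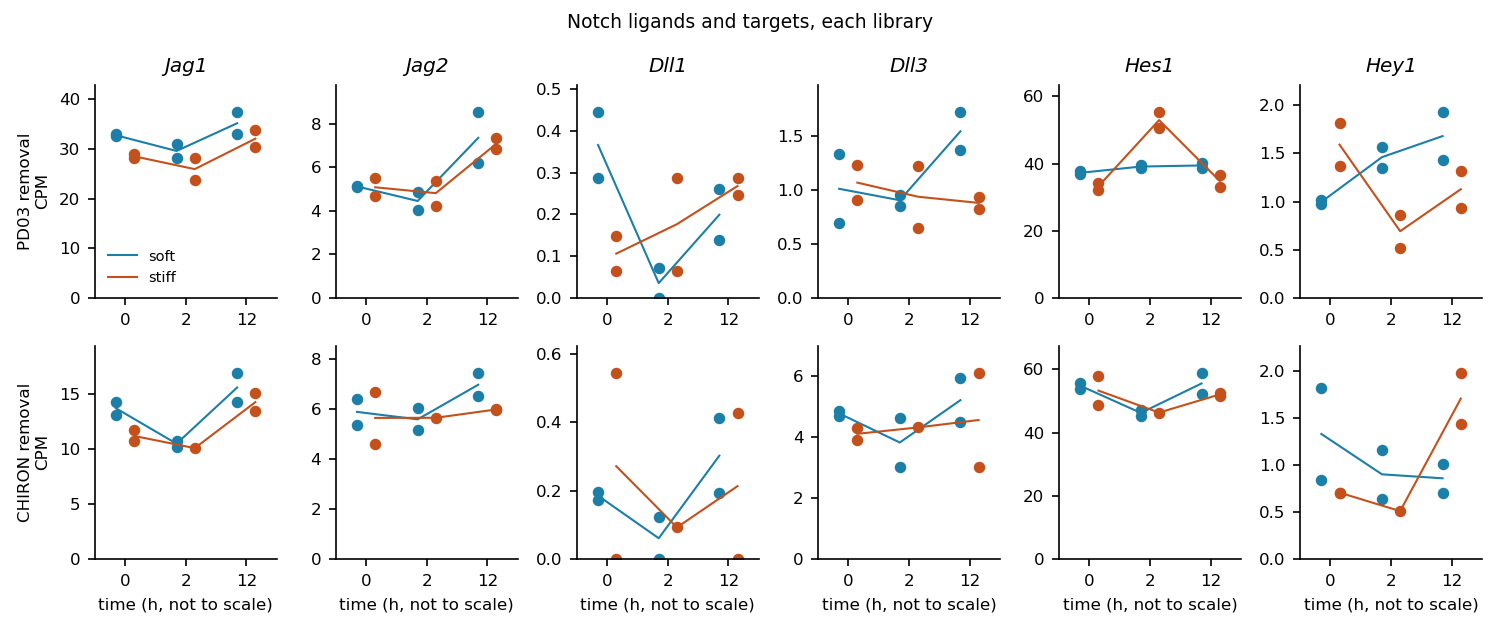
Level of each ligand and target in CPM (vertical axes from 0) at 0 h, 2 h and 12 h (horizontal axes, not to scale) for PD03 removal (top) and CHIRON removal (bottom), with 1 point per library and lines through the means of soft and stiff substrates. The 2 stiff libraries at 2 h of PD03 removal stand above all others in the panel of Hes1, at 50.6 and 55.3 CPM.

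The substrates were compared at each time, to ask whether stiffness sets the level of these genes. At 2 h of PD03 removal the difference in Hes1, soft against stiff, was -0.44 ± 0.08 on the log2 scale (adjusted p = 0.00955), so its level was lower in the soft group. It was the 1 member called of 9, where 0.134% of genes were called and 0.127% were lower on soft. The soft libraries did not overlap with the stiff ones, but the call was lost without either soft library at 2 h (adjusted p = 0.228 without replicate 1 and 0.0941 without replicate 2) or without replicate 2 of stiff substrates at 2 h (adjusted p = 0.166). The test of the difference in response itself, soft minus stiff at 2 h, gave -0.60 ± 0.11, which missed the threshold (adjusted p = 0.0583). It also missed it in 13 of 14 alternatives, with values from -0.66 to -0.53. Only the fit without the filter on low counts passed (adjusted p = 0.00261). At 0 h and 12 h the order of the substrates was the other way, with Hes1 higher on soft by 0.16 ± 0.08 and 0.18 ± 0.08, and neither passed (adjusted p = 0.684 and 0.450).

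At 0 h and at 12 h of PD03 removal 0 of 9 members differed between soft and stiff substrates by edgeR or DESeq2, where 0.0298% and 0.776% of genes were called, and 2 members at each time had an unadjusted p under 0.05. The response from 0 h differed between substrates for 0 of 9 members by either tool, both at 2 h (0.00746% of genes) and at 12 h (0%), with 2 members under an unadjusted p of 0.05 at each time. In CHIRON removal 0 of 10 members differed between soft and stiff substrates at 0 h, 2 h or 12 h by either tool, where 0% of genes were called at each time, and 2, 1 and 0 members had an unadjusted p under 0.05. The response differed for 0 of 10 members at 2 h and 12 h, again with 0% of genes called, and with 0 and 1 members under an unadjusted p of 0.05. The member at 12 h was Hey1, at -1.87 ± 0.70 (adjusted p = 1.00). For the receptors called on both substrates at 12 h of CHIRON removal, the difference in response was small beside its error. It was 0.01 ± 0.16 for Notch1 and 0.03 ± 0.21 for Notch4. For Notch3, called on stiff substrates only, it was -0.19 ± 0.17.

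**Figure D4:**
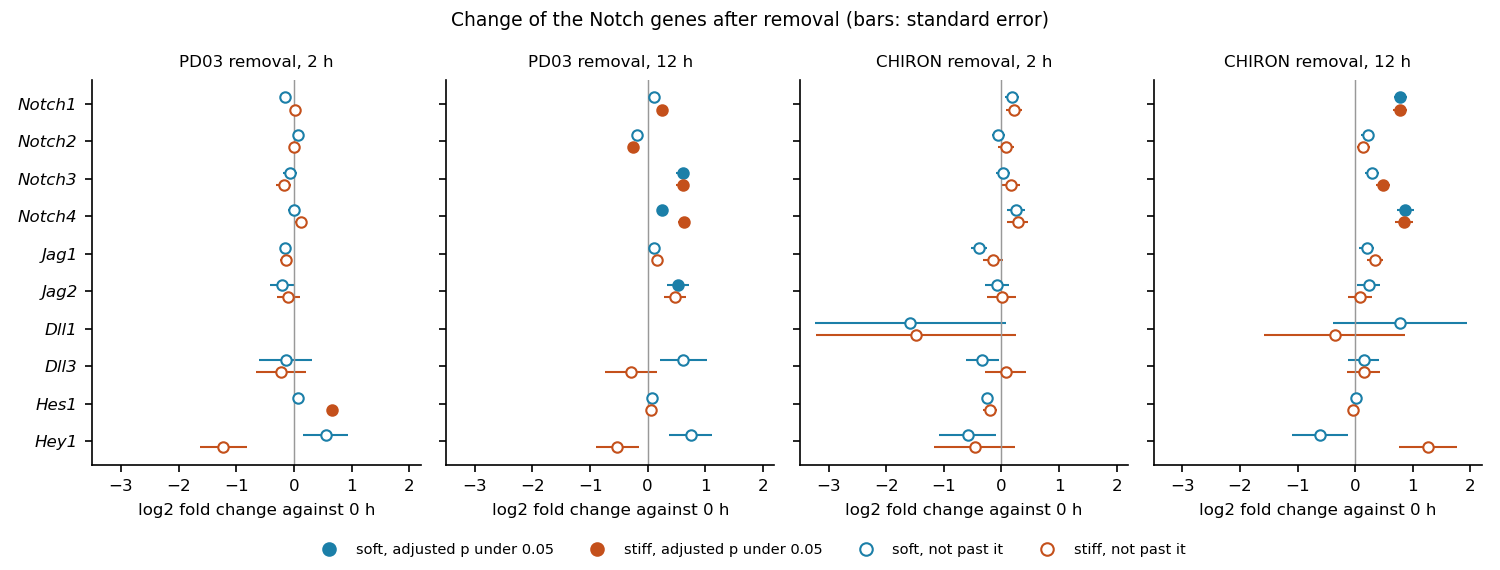
Log2 fold change against 0 h of the 10 genes at 2 h and 12 h of each removal, with bars of 1 standard error, soft and stiff substrates in separate colours, and filled points for an adjusted p under 0.05. The filled points at 12 h are mainly receptors, and the filled point at 2 h is Hes1 on stiff substrates, at 0.67.

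Other genes of the pathway were taken from a list of 53, of which 44 were tested in PD03 removal and 46 in CHIRON removal. At 12 h of PD03 removal soft substrates had 10 that rose and 3 that fell, and stiff substrates 11 and 2, 29.5% of those tested on each, beside 29.4% of all genes on soft and 38.4% on stiff substrates. On both substrates 9 of these rose. Rbpj, the DNA-binding partner of the receptors, was already higher at 2 h, by 0.36 ± 0.05 on soft (adjusted p = 2.23e-05) and 0.47 ± 0.05 on stiff substrates (adjusted p = 1.02e-07). At 12 h it was higher by 0.31 ± 0.05 and 0.48 ± 0.05 (adjusted p = 2.59e-05 and 7.09e-09). Its mean level on stiff substrates was 160 ± 1 CPM at 0 h, 221 ± 15 CPM at 2 h and 223 ± 3 CPM at 12 h (SD, n = 2). Of the other genes called on both substrates at 12 h, the acetyltransferase Kat2a rose by 0.39 and 0.41 and the coactivator Ep300 by 0.33 and 0.33. Rfng, a glycosyltransferase that modifies the receptors, rose by 0.52 and 0.71, and the corepressor Spen by 0.29 and 0.38. Mib1, the ubiquitin ligase that primes ligands for signalling, fell by 0.19 and 0.27 on the log2 scale. At 2 h the other genes called were Maml1 on soft substrates (0.38 ± 0.08, adjusted p = 0.00395) and Spen on stiff substrates (0.31 ± 0.07, adjusted p = 0.0101).

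Upon CHIRON removal, Maml2, a Mastermind coactivator, fell on both substrates. It was 15.1 ± 1.8 CPM at 0 h and 5.51 ± 0.90 CPM at 12 h on soft substrates, and 13.2 ± 1.4 and 3.94 ± 0.23 CPM on stiff substrates (SD, n = 2). The log2 fold changes were -1.48 ± 0.16 and -1.74 ± 0.17 (adjusted p = 3.44e-06 and 1.1e-06). The ubiquitin ligases Mib2 (0.63 and 0.59) and Dtx2 (0.32 and 0.35) rose on both substrates. Over the list 2 rose and 3 fell on soft substrates, 10.9% of those tested, and 5 rose and 2 fell on stiff substrates, 15.2%, both under the background given above. Nrarp, a direct target whose product limits Notch signalling, rose on stiff substrates from 1.95 ± 0.16 to 3.82 ± 0.03 CPM (0.96 ± 0.26, adjusted p = 0.0161). Its value of 0.61 on soft substrates did not pass. The non-canonical ligand Dlk1 also passed on stiff substrates (2.49 ± 0.81, adjusted p = 0.0429), but from 0 to 31 counts per library. Hes2, Hes3, Hes5, Heyl, Dll4 and Dlk2 were not tested in either experiment, with 7 counts at most in any library. Dner, Hes6, Hes7 and Hey2 passed in none of the comparisons with 0 h in which they were tested.

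Between the removals, 12 genes of the list had a higher and 3 a lower response to PD03 removal at 12 h of the 46 tested, where 36.1% of all genes differed. Maml2 differed by 1.48 ± 0.15, Rbpj by 0.48 ± 0.07, Kat2a by 0.49 ± 0.06 and Rfng by 0.67 ± 0.09, with adjusted p of 2.16e-06 or less. Those with a lower response were Mib2 (-0.54 ± 0.10), Nrarp (-0.61 ± 0.24) and Itch (-0.21 ± 0.08).

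**Figure D5:**
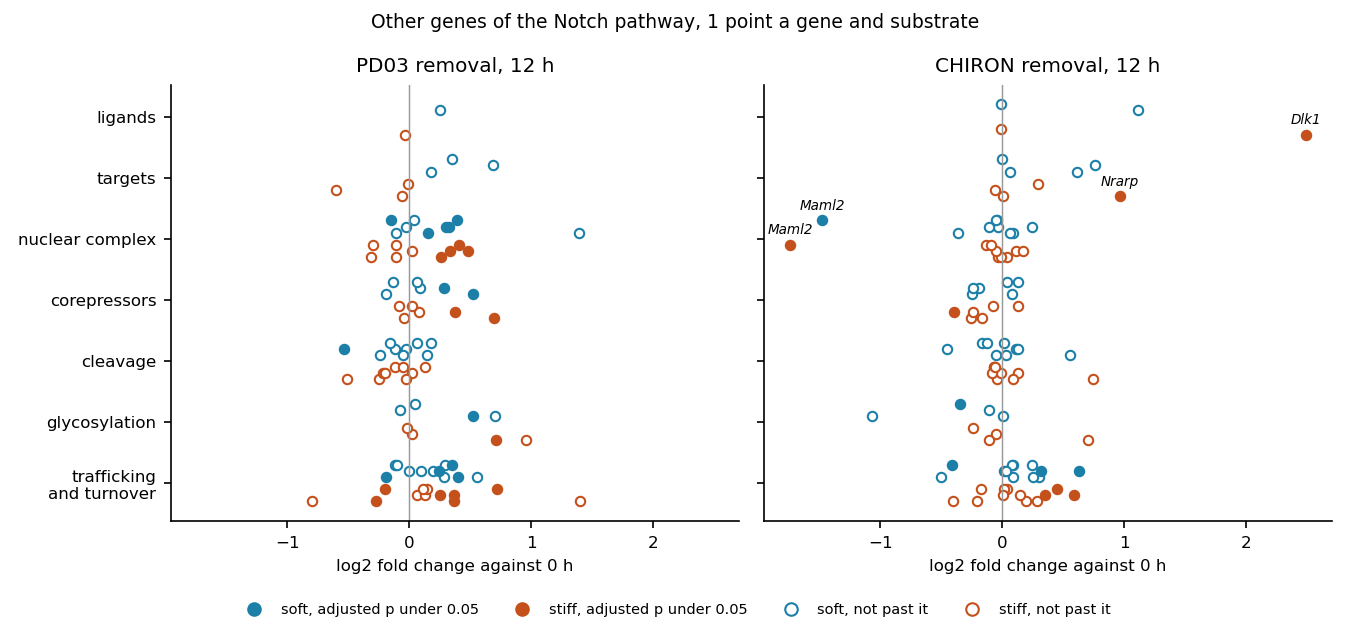
Log2 fold change at 12 h against 0 h of the other genes of the pathway, by role (vertical axis), with 1 point per gene and substrate and filled points for an adjusted p under 0.05. Upon CHIRON removal Maml2 stands apart at -1.48 and -1.74, and so does Dlk1 at 2.49 on stiff substrates, with 0 to 31 counts per library. Most filled points upon PD03 removal lie to the right of 0.

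Some members share exon bases with other genes, and no source gives the strand setting of featureCounts, so reads of these pairs could not be told apart with certainty. The counts of the partners were small beside those of the receptors. Of the genes on the opposite strand, 0610009E02Rik and Gm13568 had at most 17 and 8 counts where Notch1 had 910 to 5125, and Gm17276 had at most 20 where Notch3 had 154 to 771. Gm42820, on the same strand as Notch2, had at most 27 counts where Notch2 had 478 to 2282. For Dll1 the partner A930024N18Rik had at most 4 counts, which is not small beside the 11 of Dll1.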

How the data were processed

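RNA of 24 libraries was depleted of ribosomal RNA (Ribozero) and prepared with Nextflex kits. Per the labels and the study's methods, the authors trimmed reads with Trim Galore, aligned them to GRCm38 (mm10) with TopHat2 2.1.0 and counted reads per gene with featureCounts 1.5.0. The deposited values are these raw counts, without normalisation, in 1 table per experiment. The strand setting is not given in the sources used here. From the table of PD03 removal 23 empty lines were left out, 15 identifiers looked like dates, and 12 columns belonged to other samples and were not used.

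Genes were matched by Ensembl identifier to GENCODE M21 (34799 and 48349 genes), of which 19285 and 21695 were protein-coding. The genes of CHIRON removal carried these identifiers. Those of PD03 removal were given only as symbols, which took the identifier of the same symbol in CHIRON removal, or else in GENCODE M21. Protein-coding genes were filtered with filterByExpr (minimum count 10, minimum total count 15), scaled by TMM and fitted with the quasi-likelihood test of edgeR 4.0.16 in R 4.3.3, with the 6 groups of an experiment in 1 model, and with all 23 libraries for the difference between removals. This left 13404, 14615 and 14758 genes. The lone library of stiff substrates at 2 h of CHIRON removal was assumed to vary like the other groups. Adjusted p-values are those of Benjamini and Hochberg over all genes tested (threshold 0.05), and a standard error is the size of the log2 fold change divided by the square root of F. Exon lengths for CPM per kb are those of all annotated exons merged. Promoters were read from a RefSeq table of GRCm38.p6, which held 8 of the 10 members and not Hes1 or Hey1.

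The members and lists were chosen with earlier results of these data known. Of the pathway list, the genes named are those past the threshold on both substrates at 12 h with the smallest adjusted p, and the Hes, Hey and ligand genes; the genes called at 2 h and Itch were chosen after their values were seen. The values of 1 gene of the list are not reported here. The alternatives were DESeq2 1.42.0, its size factors in edgeR, no filter on low counts, all genes, only the groups compared, a replicate block, leaving out each replicate, and adding the small library. The procedure was tested on simulated counts. Counts of replicates differed by 2.24 to 3.25 times the sampling noise in PD03 removal and 6.58 to 19.8 times in CHIRON removal (chi-square per degree of freedom), which no copied library would show. The biological coefficient of variation was 0.0386 and 0.0797. Tables were written and figures drawn with Python 3.11.15, pandas 2.3.3 and matplotlib 3.10.9.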

Additional observations from a re-analysis of the deposited data

Results flagged for a closer look

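There were 4 responses that differed between the removals in the test of the difference itself (PD03 minus CHIRON removal, mean over both substrates, edgeR). At 12 h the differences on the log2 scale were -0.60 for Notch1, -0.39 for Notch2 and -0.42 for Notch4. At 2 h the difference was 0.59 for Hes1, whose rise upon PD03 removal was called on stiff substrates only. These are 3 of 9 members (33.3%) at 12 h, near the 36.1% of all genes that differed, and 1 of 9 at 2 h, where 3.5% of all genes differed. All 4 stayed past the threshold in every alternative run, 20 for each receptor and 18 for Hes1, with adjusted p between 8.01e-14 and 0.0446. These runs did not include a replicate block, a fit of only the groups compared or the small library. With that library added to the fit of CHIRON removal alone, Notch1 lost its calls at 12 h (adjusted p = 0.688 on soft and 0.696 on stiff substrates). No library of 1 group could be tested as an outlier, since each group has 2 libraries at most.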

How the results depend on the processing

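The number of members past the threshold was recomputed for each comparison under 134 alternatives to the processing and 112 fits that left out 1 replicate. It stayed within 1.5 times the reported number in 129 and 107 of them, and no called value changed its sign. Most comparisons had 0 members called, where an unchanged 0 was counted as within this limit. A move from 4 members to 3 was counted as within it too, so these totals can hide the loss of a single call. At 12 h of PD03 removal on soft substrates 1 member was called by DESeq2 in place of 3, and 1 to 3 when a replicate was left out, the lowest without replicate 2 of soft substrates at 0 h or at 12 h. Between soft and stiff substrates at 2 h of PD03 removal the number was 0 to 1 when a replicate was left out. Without the filter on low counts 1 member in place of 0 differed between substrates in its response at 2 h, and the removals differed at 2 h for 2 in place of 1, Notch1 being added. With the small library added, 1 member was called at 12 h of CHIRON removal on each substrate, in place of 2 and 3. Beside the cases given with the results, calls at 12 h of PD03 removal were lost by DESeq2 for Notch4 and Jag2 on soft substrates (adjusted p = 0.124 and 0.119) and for Notch2 on stiff substrates (0.0925), and for Notch2 with all genes tested, not only protein-coding ones (0.0529). For Notch4 on soft substrates the call was also lost without the filter on low counts (adjusted p = 0.0598) and with only the groups compared in the fit (0.0538). They were also lost for Jag2 without replicate 1 or 2 of soft substrates at 0 h (0.116 and 0.111), for Notch4 without replicate 1 or 2 of soft substrates at 12 h (0.188 and 0.0836), for Notch1 without replicate 2 of stiff substrates at 12 h (0.0825), and for Notch2 without replicate 1 of that group (0.261). The cause of these shifts was not tested. Stiff substrates at 2 h of CHIRON removal could not be fitted without replicate 2, which is the lone library. A pairing of libraries by replicate number was not seen. For this, the deviations of replicate 1 from the mean of its group were correlated between groups. The correlation was -0.0025 on average in PD03 removal (-0.053 to 0.113) and -0.0198 in CHIRON removal (-0.109 to 0.0713). With a replicate block 5 members in place of 4 were called at 12 h of PD03 removal on stiff substrates, Jag2 being added (adjusted p = 0.0349 in place of 0.0500332). Jag2 was also called there with DESeq2 size factors in edgeR (0.0471), without the filter on low counts (0.0409) and with only the groups compared (0.0428). In the other comparisons within an experiment the number was the same, also with a block by tube number. Depth limits Dll1, Dll3 and Hey1, and 2 libraries per group limit the precision of all values.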

Other observations

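The genes whose pattern was most like that of Hes1 and Notch1 were sought by the correlation of log2 CPM (prior count 2), centred on the mean of each experiment, over the 23 libraries and among 13165 genes. For Hes1 they were Fos (Pearson's r = 0.75), an immediate early gene of ERK signalling, Fxyd4 (0.75) and Nptx2 (0.72). For Notch1 they were Aff4 (0.93), Epas1 (0.92) and Adamts9 (0.92). By Spearman's correlation 1 of the 3 genes was the same for each, Fxyd4 for Hes1 and Epas1 for Notch1. The libraries share their groups, times and media, so these values are descriptions of likeness across the design, and they are given without a test.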
